A study of Mus musculus with 6 samples.

Results

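The genes described here encode the subunits of Polycomb repressive complex 2 (PRC2), measured by RNAseq in the mouse retina with and without the histone methyltransferase gene *Mll1*. The members were chosen by name, as the catalytic subunits *Ezh1* and *Ezh2*, the core subunits *Eed*, *Suz12* and *Rbbp7*, and the accessory subunits *Jarid2*, *Aebp2*, *Mtf2* and *Phf19*. Of these 9 genes, 8 are among the 11339 genes of the table, and *Phf19* was not analysed here. The RNA is from mice at postnatal day 14 (P14), with 3 samples of genotype *Mll1KO* and 3 of WT, each a pool of 2 retinas and described in the Methods as biological replicates, so that the p-values below measure spread between such pools. The *Mll1KO* mice carried floxed *Mll1* on both alleles and a transgene that drives Cre recombinase in retinal progenitors, and the WT mice were C57Bl6/J, the strain the labels give for the *Mll1KO* mice as well. The WT mice are not named as Cre-negative littermates, so that effects of Cre, the floxed alleles or litter cannot be told apart from the loss of *Mll1*. Values are RPKM, the reads of a gene scaled to its length in kilobases and to the total of its library. The library totals, recovered from RPKM, were 23836033 reads for WT sample a, 19777205 for b and 19323512 for c, and for *Mll1KO* 23348923 in a, 19855963 in b and 17961097 in c.

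PRC2 places methyl groups on lysine 27 of histone H3, a mark of repressed genes, while MLL1 methylates lysine 4 of the same histone, a mark of active promoters. EZH2 is the more active methyltransferase and is known from dividing progenitors, whereas EZH1 is the form that prevails in cells that have left the cell cycle. In the developing retina PRC2 is known for its part in progenitor proliferation and in the timing of cell fates. In extracts from retinas older than P14, the paper saw no difference between *Mll1KO* and Cre-negative mice in trimethylation of lysine 27 or lysine 4. The RNA values below do not measure these marks.

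*Mll1*, which the table lists as *Kmt2a*, is the gene that was targeted and had an RPKM of 36.1, 36.9 and 34.6 in WT samples a, b and c, against 22.9, 20.4 and 22.3 in *Mll1KO* samples a, b and c. The 3 *Mll1KO* values lay under the 3 WT values, and the mean fell from 35.9 ± 1.17 (SD, n = 3) to 21.8 ± 1.27 (SD, n = 3), 60.9% of WT (log2 fold change -0.69, limma adjusted p = 2.77e-05). *Kmt2a* lies at chr9:44803355-44881296 (GRCm38, minus strand, ENSMUSG00000002028), only a part of it is floxed, and RPKM counts reads from its remaining exons as well. The retina markers *Crx*, *Nrl*, *Pax6* and *Rlbp1* were all listed. The samples differed in *Xist*, the RNA that coats the inactive X chromosome in females, which had an RPKM of 71.7, 75.8 and 72.5 in the WT samples and of 129.6, 0.59 and 127.7 in *Mll1KO* samples a, b and c. *Mll1KO* sample b thus stood apart from the other 5, but these were not alike, since *Mll1KO* samples a and c lay far above the WT samples (log2 fold change 0.80 without *Mll1KO* sample b, limma adjusted p = 2.26e-05, and the highest adjusted p of the alternatives was 0.634, without WT sample b). Leaving out that sample therefore does not balance the groups in *Xist*, and although the Methods say that mice of each sex entered every experiment, they do not give the sex for any sample. The genes *Ddx3y*, *Eif2s3y*, *Kdm5d* and *Uty* of the Y chromosome were not analysed here. Values without this sample are given below for each member that passed the test.

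Of the 8 listed subunits, 3 were changed in *Mll1KO*, *Ezh2* and *Jarid2* being lower and *Ezh1* higher. The test was limma, which fits each gene's log2(RPKM + 1) with a spread moderated over all genes, and a gene is called changed at a Benjamini-Hochberg adjusted p under 0.05 over 11339 genes. Across all genes 23.3% were called, 8.81% as higher and 14.5% as lower, and against this background 3 of 8 (37.5%) is no result about the subunits as a list. The median log2 fold change of the 8 subunits was -0.02, and that of all genes -0.03. The groups did not overlap for 5 of the 8 subunits, 4 with all *Mll1KO* samples lower and 1 with all higher, where 41.1% of all genes showed no overlap, 26.5% lower and 14.6% higher. Libraries were compared as deposited, scaled to their totals, which gave 2643 changed genes of which 37.8% were higher, whereas with TMM factors 2420 genes were changed and 51.9% were higher. Scaled instead to an equal sum over 14 rod genes, the median of all genes moved to -0.29, with 9517 genes called and 2.43% of them higher, and 6 of the 8 subunits were then called, all as lower. Without WT sample b the count over all genes was 1704, and without *Mll1KO* sample c it was 1757. The folds below are on the log2(RPKM + 1) scale, which understates the change of weakly expressed genes.

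*Ezh2* (ENSMUSG00000029687, chr6:47530139-47595341, minus strand, GRCm38) had an RPKM of 3.87, 4.53 and 4.10 in WT samples a, b and c, against 3.01, 2.92 and 3.45 in *Mll1KO* samples a, b and c. The groups did not overlap, *Mll1KO* being the lower, and the nearest values were those of *Mll1KO* sample c and WT sample a. The mean fell from 4.17 ± 0.333 (SD, n = 3) to 3.12 ± 0.285 (SD, n = 3), which is 75.0% of WT. On the log2(RPKM + 1) scale the log2 fold change was -0.33, with a standard error of 0.07 and an adjusted p of 0.0089 in limma. With limma-voom on recovered reads, which adds no 1 RPKM, it was -0.42. These values rest on 359 to 572 reads per library. The call remained in all 6 fits that left out a sample, with log2 fold changes from -0.38 to -0.28, and without *Mll1KO* sample b it was -0.29 (limma adjusted p = 0.0318). It was -0.56 with the libraries scaled to rod genes and -0.17 with a pseudocount of 5. In whole retinas, fewer cells of a type that expresses a gene and less of its RNA per cell cannot be told apart.

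*Ezh1* (ENSMUSG00000006920, chr11:101191115-101226463, minus strand) had an RPKM of 13.2, 12.0 and 12.2 in WT samples a, b and c, against 13.96, 14.5 and 13.7 in *Mll1KO* samples a, b and c. The groups did not overlap, *Mll1KO* being the higher, and WT sample a came nearest to it. The mean of WT was 12.4 ± 0.619 (SD, n = 3) and that of *Mll1KO* 14.04 ± 0.402 (SD, n = 3). On 1747 to 2425 reads per library this is a log2 fold change of 0.16 with a standard error of 0.05 and an adjusted p of 0.0416 in limma. This call lay close to the threshold. It did not hold without WT sample b (adjusted p in limma 0.144), WT sample c (0.111) or *Mll1KO* samples a (0.0690), b (0.121, log2 fold change 0.14) or c (0.0736), and held without WT sample a (0.0260). With the replicate letter as a block the call was lost as well (limma adjusted p = 0.0666). Over all alternatives the adjusted p in limma ranged from 0.0107 to 0.144. The direction of *Ezh1* turned with the libraries scaled to rod genes (-0.12, limma adjusted p = 0.0661), although it then still lay 0.18 above the median of all genes.

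The balance of the catalytic subunits does not depend on how libraries are scaled, since both RPKM values come from the same library. The ratio of *Ezh1* to *Ezh2* RPKM was 3.40, 2.66 and 2.96 in the WT samples and 4.64, 4.96 and 3.97 in *Mll1KO* samples a, b and c. The lowest *Mll1KO* ratio, that of sample c, was above the highest WT ratio, that of sample a. On the log2 scale WT had a mean ratio of 1.58 ± 0.178 (SD, n = 3) and *Mll1KO* one of 2.17 ± 0.166 (SD, n = 3), a difference of 0.59 or 1.51-fold (p = 0.1 in a two-sided exact permutation test, which cannot give less with 3 against 3 samples). *Ezh2* made up 22.7%, 27.3% and 25.2% of the summed RPKM of both genes in the WT samples and 17.7%, 16.8% and 20.1% in the *Mll1KO* samples. The sum itself was 16.6 ± 0.393 RPKM (SD, n = 3) in WT and 17.2 ± 0.214 RPKM (SD, n = 3) in *Mll1KO*, with WT sample a, at 17.0, above *Mll1KO* sample a, at 16.97, so that the groups overlapped. Left out in turn, the samples gave differences of the log2 ratio from 0.50 to 0.68.

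**Figure D1:**
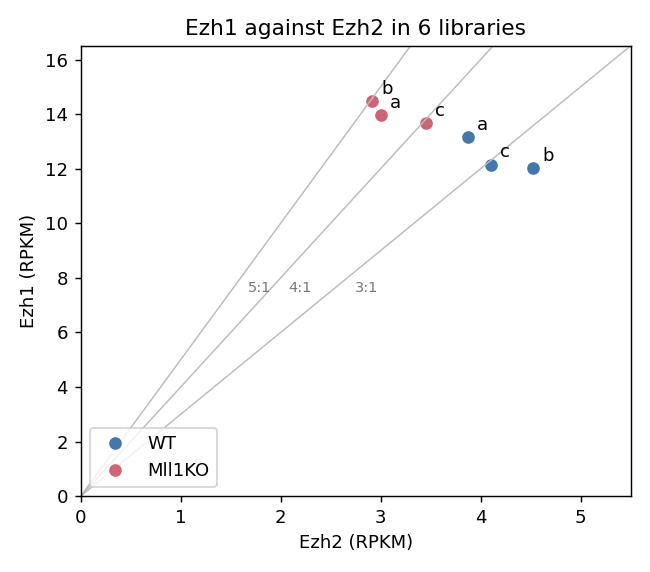
RPKM of *Ezh1* (vertical axis) against RPKM of *Ezh2* (horizontal axis) in the 3 WT and 3 *Mll1KO* samples, each point a sample marked with its replicate letter, with grey lines at ratios of 3, 4 and 5 to 1. The *Mll1KO* samples lie at *Ezh1* to *Ezh2* ratios from 3.97 to 4.96 and the WT samples from 2.66 to 3.40, and scaling a library moves its point along a line through the origin without changing its ratio.

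The transcripts of the catalytic paralogs share no run as long as a read. The longest run of bases that protein-coding transcripts of *Ezh1* and *Ezh2* share has 17 bases, against a read length of 50 bases, and is shown because the balance rests on this separation.
Run shared by Ezh1 and Ezh2: aagtatgtgggcatcga
Of the stretches of 50 bases in their transcripts, 0.093% in *Ezh1* and 1.11% in *Ezh2* also occur in transcripts of other genes.

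Among the core subunits, *Eed* (ENSMUSG00000030619, chr7:89954654-89980983, minus strand), which binds trimethylated lysine 27, had an RPKM of 11.8, 12.2 and 12.3 in the WT samples and of 11.5, 11.5 and 11.8 in the *Mll1KO* samples. The groups did not overlap but lay close, *Mll1KO* sample c just under WT sample a. The log2 fold change of *Eed* was -0.06 with a 95% interval from -0.16 to 0.04 (limma adjusted p = 0.359). *Suz12* (ENSMUSG00000017548, chr11:79993106-80034123, plus strand), which holds the catalytic and accessory subunits together, had an RPKM of 14.2, 16.3 and 16.4 in WT samples a, b and c, against 15.7, 18.3 and 19.1 in *Mll1KO* samples a, b and c. Sample a was the lowest in each genotype, and *Mll1KO* sample a lay within the WT range. The log2 fold change of 0.17 had a 95% interval from -0.01 to 0.34 and did not pass the test (limma adjusted p = 0.148, with alternatives from 0.0307 to 0.399). It did pass without *Mll1KO* sample a (0.25, limma adjusted p = 0.0307) and with the replicate letter as a block (limma adjusted p = 0.0376). The log2 fold change shrank without WT sample a (0.10, limma adjusted p = 0.384) and without *Mll1KO* sample c (0.11, limma adjusted p = 0.399). With the libraries scaled to rod genes *Suz12* turned to -0.11, 0.18 above the median of all genes.

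*Rbbp7* (ENSMUSG00000031353, chrX:162760402-162779092, plus strand), a histone-binding subunit that other chromatin complexes contain as well, had an RPKM of 18.8, 19.6 and 21.2 in the WT samples and of 19.5, 20.7 and 20.3 in the *Mll1KO* samples. The *Mll1KO* samples lay within the WT range, and the log2 fold change was 0.02 with a 95% interval from -0.09 to 0.14 (limma adjusted p = 0.809). Although the gene is X-linked, *Mll1KO* sample b, the sample with little *Xist*, did not stand apart in it. Of its stretches of 50 bases, 11.2% also occur in other genes, 6.97% in *Gm6382*, so that its level is less certain than those of the other members. Such shares were 5.82% in *Eed* and 5.56% in *Mtf2* and smaller in the other 5. *Rbbp4*, its close relative, had a mean of 12.4 ± 0.467 RPKM (SD, n = 3) in WT and 12.8 ± 0.223 RPKM (SD, n = 3) in *Mll1KO*, with overlapping groups (log2 fold change 0.04, limma adjusted p = 0.538). Scaling to rod genes turned the direction of *Rbbp7* (-0.26) and *Rbbp4* (-0.23), both of which then passed the test.

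**Figure D2:**
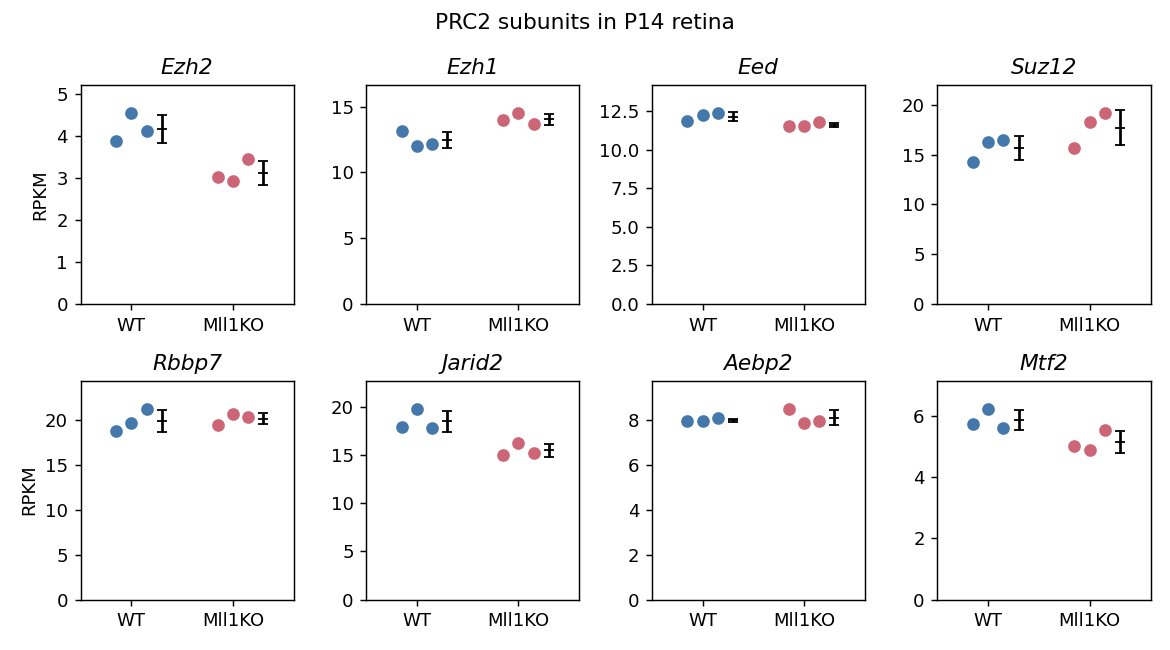
RPKM (vertical axes, from 0) of the 8 listed PRC2 subunits in the 3 WT and 3 *Mll1KO* samples at P14, in the order a, b and c, with the mean and SD of each group in black. *Ezh2*, *Jarid2*, *Eed* and *Mtf2* have all *Mll1KO* samples below all WT samples and *Ezh1* has them above, while the direction of *Ezh1*, *Suz12*, *Aebp2* and *Rbbp7* turns when libraries are scaled to rod genes.

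Of the accessory subunits, *Jarid2* (ENSMUSG00000038518, chr13:44729474-44921643, plus strand) helps to recruit the complex to chromatin and had an RPKM of 18.0, 19.8 and 17.8 in WT samples a, b and c, against 15.04, 16.3 and 15.2 in *Mll1KO* samples a, b and c. Sample b was the highest in each genotype, and the groups did not overlap. The mean fell from 18.5 ± 1.10 (SD, n = 3) to 15.5 ± 0.658 (SD, n = 3), 83.8% of WT, on 2653 to 4157 reads per library, with a log2 fold change of -0.24, a standard error of 0.05 and an adjusted p of 0.0107 in limma. The call remained in all 6 fits that left out a sample, and the log2 fold change was -0.27 without *Mll1KO* sample b and -0.52 with the libraries scaled to rod genes. *Aebp2* (ENSMUSG00000030232, chr6:140622663-140678472, plus strand), which is found in the complex together with *Jarid2*, had an RPKM of 7.96, 7.95 and 8.08 in the WT samples and of 8.48, 7.87 and 7.97 in the *Mll1KO* samples. Its groups overlapped, *Mll1KO* sample a being the highest and *Mll1KO* sample b the lowest of the 6, with a log2 fold change of 0.02 and a 95% interval from -0.09 to 0.13 (limma adjusted p = 0.839). The direction turned, to -0.25, when libraries were scaled to rod genes, and *Aebp2* then passed the test as lower (limma adjusted p = 0.00282).

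*Mtf2* (ENSMUSG00000029267, chr5:108065674-108109004, plus strand) encodes a Polycomb-like protein that tethers PRC2 to CpG-rich DNA, and had an RPKM of 5.76, 6.23 and 5.61 in WT samples a, b and c, against 5.03, 4.88 and 5.54 in *Mll1KO* samples a, b and c. The groups did not overlap, with *Mll1KO* sample c closest to WT. The log2 fold change of -0.16 (95% interval from -0.30 to -0.02) did not pass the threshold over all genes (limma adjusted p = 0.0904). *Phf1* (ENSMUSG00000024193, chr17:26933052-26937908, plus strand), another Polycomb-like gene, belongs to the wider list of PRC2 cofactors and had an RPKM of 21.2, 19.1 and 21.8 in the WT samples and of 25.7, 26.8 and 30.0 in the *Mll1KO* samples. Its groups were well apart, with a log2 fold change of 0.39, a standard error of 0.07 and an adjusted p of 0.0025 in limma, a call kept in all 6 fits that left out a sample. Scaled to rod genes it was no longer called (limma adjusted p = 0.15, the other alternatives reaching down to 0.000489), with its log2 fold change down from 0.39 to 0.11. Of the stretches of 50 bases of *Phf1*, 28.3% also lie in *Cuta*, which overlaps it on the other strand, and whether reads were counted by strand is not given in the sources used here. *Cuta* itself had RPKM values from 51.3 to 57.0 in WT and from 48.9 to 56.0 in *Mll1KO*. The ratio of *Phf1* to *Mtf2* RPKM ranged from 3.06 to 3.88 in WT and from 5.12 to 5.49 in *Mll1KO*, a description chosen after the values of both genes were seen. *Lcor* (log2 fold change -0.15, limma adjusted p = 0.114) and *Lcorl* (-0.08, limma adjusted p = 0.311), which also encode PRC2 cofactors, did not pass the test, and *Epop* and *Ezhip* were not analysed here.

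**Figure D3:**
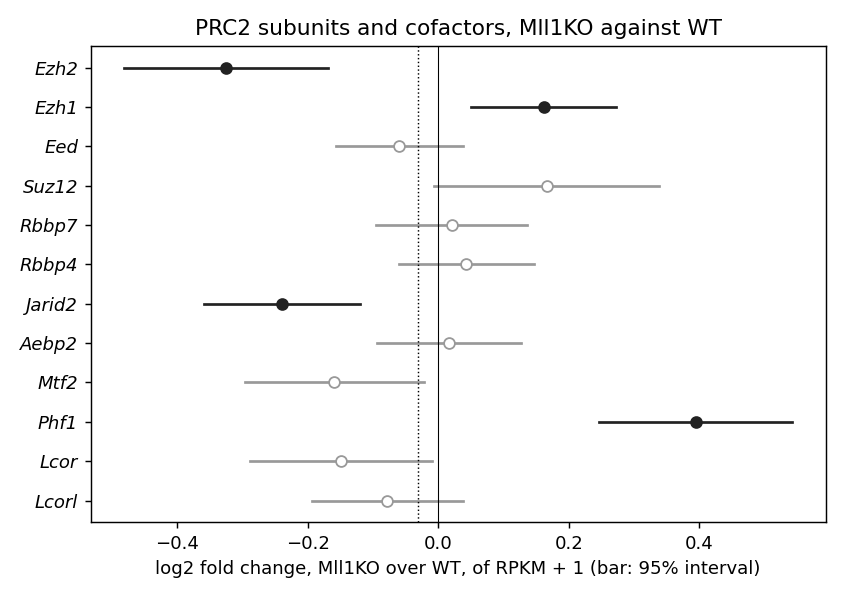
Log2 fold change of RPKM + 1 between *Mll1KO* and WT (horizontal axis) for 8 PRC2 subunits and 4 further cofactors, with bars for the 95% interval of limma, filled points for genes called at an adjusted p of 0.05, a solid line at 0 and a dotted line at the median of all genes, -0.03. *Ezh2* and *Jarid2* lie on the lower side and *Phf1* and *Ezh1* on the higher side, and with libraries scaled to rod genes *Ezh1*, *Suz12*, *Rbbp7*, *Rbbp4* and *Aebp2* fall below 0.

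By level the order in WT was *Rbbp7* (19.9), *Jarid2* (18.5), *Suz12* (15.6), *Ezh1* (12.4), *Eed* (12.1), *Aebp2* (8.00), *Mtf2* (5.87) and *Ezh2* (4.17 RPKM). RPKM is per length, so that such an order also rests on the length taken for each gene and on stretches shared with other genes. The ranges of *Rbbp7* and *Jarid2* over the samples overlapped, as did those of *Ezh1* and *Eed*, while all other neighbours were separate. These ranges show spread between samples, not the error of a comparison between genes. In *Mll1KO* the order was *Rbbp7* (20.2), *Suz12* (17.7), *Jarid2* (15.5), *Ezh1* (14.04), *Eed* (11.6), *Aebp2* (8.11), *Mtf2* (5.15) and *Ezh2* (3.12 RPKM). There *Suz12* stood above *Jarid2* with overlapping ranges, and *Ezh1* was separate from *Eed*. *Ezh2* was the least abundant of the 8 listed subunits in both genotypes, the level of *Phf19* being unknown here, at the 17.6th percentile of all genes by mean RPKM, while *Rbbp7* was at the 75.7th and the median gene had 9.52 RPKM in WT and 9.29 RPKM in *Mll1KO*.

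The other Polycomb genes comprise the partners of PRC2 named above, PRC1, which binds the methylated histone and ubiquitinates histone H2A, and the enzymes that remove either mark. Of 33 such genes listed, 7 were changed, 1 higher and 6 lower, or 21.2% against 23.3% of all genes, and their median log2 fold change was -0.08. With limma-voom on recovered reads 12 of the 33 were called, 2 higher and 10 lower, where 25.6% of all genes were called. The balance of directions depended on the scaling, since with TMM factors 10 of the 33 were called, 4 higher and 6 lower, where 21.3% of all genes were called. RLE factors gave 10 as well, where 21.2% of all genes were called. In PRC1, 4 of 23 genes were lower and the other 19 did not pass the test with the libraries as deposited, where 14.5% of all genes were lower. Limma-voom called 1 as higher and 7 as lower, where 1082 of all 11339 genes were higher and 1821 lower. With TMM or RLE factors *Ring1*, *Cbx6* and *Cbx7* were called as higher beside 4 lower genes, and with upper-quartile factors *Cbx7* was. Of all genes 1257 were higher and 1163 lower with TMM factors, 1276 and 1126 with RLE factors, and 1272 and 1140 with upper-quartile factors. With the libraries scaled to rod genes 20 of the 23 were lower, where 9286 of all 11339 genes were, and the direction of *Ring1*, *Cbx6* and *Cbx7* turned, the last 2 being called as lower (log2 fold change -0.19 and -0.14). Among the fits that left out 1 sample, without *Mll1KO* sample a 5 were lower, where 1559 of all 11339 genes were. Without *Mll1KO* sample b *Ring1* was called as higher, where 775 of all genes were. *Rnf2*, an E3 ligase of PRC1, had an RPKM of 14.9, 14.7 and 14.6 in the WT samples and of 11.4, 12.3 and 11.9 in the *Mll1KO* samples. These groups lay far apart for their spread (log2 fold change -0.29, limma adjusted p = 0.00168). *Pcgf3*, which encodes a partner of RNF2 in variant PRC1, was also lower (log2 fold change -0.34, limma adjusted p = 0.00151). So were *Bcor* (-0.31, limma adjusted p = 0.0031), a scaffold of variant PRC1, and *Phc1* (-0.24, limma adjusted p = 0.0103), a polyhomeotic subunit of canonical PRC1. Each of these 4 calls remained in all 16 alternatives.

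Among 6 genes for the removal of Polycomb marks, 2 were lower and 4 did not pass the test, where 14.5% of all genes were lower. With limma-voom 3 of the 6 were lower, where 1821 of all 11339 genes were. Scaled to rod genes 5 of the 6 were lower, where 9286 of all genes were. *Kdm6b*, a demethylase of lysine 27, had an RPKM of 37.4, 37.1 and 33.6 in the WT samples and of 28.1, 25.7 and 25.9 in the *Mll1KO* samples (log2 fold change -0.42, limma adjusted p = 0.000539). The highest *Mll1KO* value was below the lowest WT value. *Asxl3*, which encodes a partner of the H2A deubiquitinase BAP1, went from a mean of 1.41 ± 0.0641 RPKM (SD, n = 3) to 0.822 ± 0.0508 RPKM (SD, n = 3), a log2 fold change of -0.41 (limma adjusted p = 0.000458). Both calls remained in all 16 alternatives. *Kdm6a*, the X-linked demethylase of lysine 27, is named after its values were seen, since it had an RPKM of 10.3, 10.2 and 9.71 in the WT samples and of 11.3, 7.45 and 12.4 in *Mll1KO* samples a, b and c. *Mll1KO* sample b, the sample with little *Xist*, was the lowest of the 6 and *Mll1KO* samples a and c were the highest. Its log2 fold change was 0.01 (limma adjusted p = 0.961), 0.21 without *Mll1KO* sample b (limma adjusted p = 0.0396, with alternatives reaching 0.973) and -0.26 with the libraries scaled to rod genes. The 41 target genes of PRC2 in the lists, the *Hox* genes with *Cdkn2a* and *Cdkn2b*, were not analysed here, and all 11339 listed genes exceed a CPM of 5, the filter of the authors, in at least 5 samples.

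Markers of retinal cell types differed with genotype as well. Of all genes 8.81% were called as higher and 14.5% as lower, a share to set beside the counts of each list. Of 14 rod genes, 8 were higher and 1 was lower, and 5 were higher without WT sample b, without *Mll1KO* sample b or without *Mll1KO* sample c. In these fits 674, 775 and 704 of all 11339 genes were higher. Among the 14 rod genes *Pde6a*, a subunit of the rod phosphodiesterase, had the largest log2 fold change (0.48, limma adjusted p = 0.000101) and *Nr2e3*, a rod transcription factor, the smallest (-0.36, limma adjusted p = 0.00946). The 8 cone genes summed to between 340.4 and 371.5 RPKM in WT and between 408.0 and 446.3 RPKM in *Mll1KO*, with 6 genes higher, 1 lower and *Opn1mw* the most abundant. The 8 Müller glia genes summed to between 1259 and 1389 RPKM in WT and between 1613 and 1684 RPKM in *Mll1KO*, with 4 genes higher, 1 lower and *Glul* the most abundant. As a percent of the summed RPKM of the rod genes in the same sample, however, the groups overlapped for the cone genes (2.01% to 2.27% in WT, 2.03% to 2.25% in *Mll1KO*) and for the Müller glia genes (7.48% to 8.48% in WT, 8.01% to 8.30% in *Mll1KO*). With the libraries scaled to rod genes, 1 of the 14 rod genes was higher and 6 were lower. By the same scaling 3 of the 8 cone genes were higher and 2 lower, and 3 of the 8 Müller glia genes were higher and 4 lower. Of all 11339 genes 231 were then higher and 9286 lower.

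Lists of inner retinal neurons had lower sums in *Mll1KO*, as RPKM and as a percent of the rod sum, except that the RPKM sums of amacrine genes overlapped. The counts that follow stand against 14.5% of all genes called as lower and 8.81% as higher. The 6 ganglion cell genes were lower with the libraries as deposited, with sums from 401.6 to 442.1 RPKM in WT and from 279.4 to 341.5 RPKM in *Mll1KO* and *Sncg* the most abundant, and the smallest log2 fold change was that of *Pou4f2* (-0.89, limma adjusted p = 0.000287), a transcription factor of these cells. Of these calls that of *Thy1*, a surface protein, was lost with TMM, RLE or upper-quartile factors (limma adjusted p from 0.0566 to 0.0619), and without WT sample a (0.101), WT sample c (0.0619), *Mll1KO* sample b (0.0945) or *Mll1KO* sample c (0.116). Of 6 bipolar genes 4 were lower and 2 did not pass, with sums from 259.1 to 266.1 RPKM in WT and from 208.7 to 215.3 RPKM in *Mll1KO* and *Grm6*, the glutamate receptor of ON bipolar cells, the most abundant. The groups overlapped in *Grm6*, and its call was lost with TMM, RLE or upper-quartile factors (limma adjusted p from 0.0502 to 0.0534), and without WT sample a (0.0823), WT sample b (0.0972), *Mll1KO* sample b (0.0919) or *Mll1KO* sample c (0.102). Of 5 listed horizontal cell genes 4 were lower and 1 did not pass, with sums from 52.8 to 56.8 RPKM in WT and from 38.82 to 41.5 RPKM in *Mll1KO* and *Prox1* the most abundant, while *Lhx1* was not analysed here. The 6 amacrine genes went both ways with the libraries as deposited, 2 higher and 4 lower, with sums from 176.7 to 186.5 RPKM in WT and from 163.1 to 181.5 RPKM in *Mll1KO* and *Tfap2b* the most abundant. Scaled to rod genes, 0 of the 6 were higher and 4 lower, where of all 11339 genes 231 were higher and 9286 lower. *Pax6* is a marker of the retina and of amacrine cells, and *Nrl* and *Rlbp1* are retina markers that are also in the rod and the Müller glia list.

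A proliferation list was described in the same way, and whether it bears on *Ezh2* was not tested. Of its 16 genes 8 were listed, and *Mki67*, *Top2a*, *Cdk1*, *Ccnb1*, *Mcm3*, *Rrm2*, *Tyms* and *Hmgb2* were not analysed here. The 8 listed genes summed to 34.6, 33.9 and 34.7 RPKM in the WT samples and to 32.9, 30.6 and 31.6 RPKM in *Mll1KO* samples a, b and c, with *Pcna* the most abundant. The sums of the *Mll1KO* samples were the lower, as RPKM and as a percent of the rod sum (0.204% to 0.213% in WT, 0.149% to 0.164% in *Mll1KO*). Of the 8 genes 2 passed the test as lower, where 14.5% of all genes did, and 6 did not pass. Without WT sample a or without *Mll1KO* sample c 0 of the 8 passed in limma, where 1227 and 1053 of all 11339 genes were lower. Without WT sample b 1 was lower, where 1030 of all genes were. Without *Mll1KO* sample a 3 were lower, where 1559 of all genes were. With the libraries scaled to rod genes 7 were, as were 9286 of all 11339 genes. In the fit of all 6 samples 1 of the 8 was higher and 3 were lower at an unadjusted p under 0.05. The share of all genes at that threshold is not given here, so that these counts cannot be set against it. Limma-voom called 2 as lower, where 1821 of all 11339 genes were. With TMM factors 1 was called as higher beside 2 lower, and with RLE factors 1 as higher beside 1 lower. Of all 11339 genes 1257 were higher and 1163 lower with TMM factors, and 1276 higher and 1126 lower with RLE factors. The 5 vascular endothelium genes summed to between 74.0 and 77.5 RPKM in WT and between 50.9 and 58.2 RPKM in *Mll1KO*, with 2 genes lower and *Kdr*, a receptor of vascular growth factor, the most abundant (log2 fold change -0.73, limma adjusted p = 0.000115). At an unadjusted p under 0.05, for which the share of all genes is not given here, 4 of the 5 were lower and 1 higher. With TMM, RLE or upper-quartile factors 2 were lower and 1 higher, and 3 were lower without WT sample b. Upper-quartile factors called 1272 of all 11339 genes as higher and 1140 as lower, and the counts for TMM and RLE factors are given above. Without WT sample b 1030 of all genes were lower. After scaling to rod genes 4 were lower, as were 9286 of all 11339 genes. The 4 listed microglia genes, of which *C1qb* was the most abundant, summed to between 16.7 and 17.2 RPKM in WT and between 15.8 and 18.3 RPKM in *Mll1KO*, and 0 were called by limma, 0 at an unadjusted p under 0.05 and 0 by limma-voom. With the libraries scaled to rod genes 2 of the 4 were lower, a smaller share than the 9286 of all 11339 genes. Without *Mll1KO* sample c 1 was lower, where 1053 of all genes were. As a percent of the rod sum the groups did not overlap (0.101% to 0.108% in WT, 0.0783% to 0.0919% in *Mll1KO*), while *C1qa*, *Aif1* and *Tmem119* were not analysed here. The part of these cell types in the values of the PRC2 subunits was not tested.

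The genes whose log2(RPKM + 1) followed *Ezh2* most closely over the 6 samples were *Rpl41* (Pearson r = 0.993), *Ckap4* (0.991), *G2e3* (0.990), *Pfn2* (0.988) and *Vps50* (0.988). For *Ezh1* they were *Sik3* (Pearson r = 0.995), *Usp29* (0.991), *Mtf1* (0.989), *Arhgef15* (0.987) and *Ephb1* (0.987). The coefficients are a description of 6 samples that share the split into genotypes and the depth of each library, and are the highest over all genes.

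RefSeq promoter windows of 300 bases, 250 before and 50 after the start of transcription (GRCm38.p6), were found for all 9 subunits, in 13 windows. The windows of the called genes *Ezh2* and *Ezh1*, and the first of 2 windows of *Jarid2*, are shown 5′ to 3′ on the strand of the gene, with matches to the E2F motif (TTTGGCGC or TTTCCCGC, either strand) in capitals. E2F factors are known as regulators of cell cycle genes.
Ezh2 (chr6:47594981-47595280, minus strand): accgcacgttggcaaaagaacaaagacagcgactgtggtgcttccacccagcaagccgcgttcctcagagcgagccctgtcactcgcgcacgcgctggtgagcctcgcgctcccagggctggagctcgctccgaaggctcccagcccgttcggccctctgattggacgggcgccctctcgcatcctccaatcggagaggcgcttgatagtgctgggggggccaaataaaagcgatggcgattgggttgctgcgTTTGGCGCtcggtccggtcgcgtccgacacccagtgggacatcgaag
Jarid2, first window (chr13:44730524-44730823, plus strand): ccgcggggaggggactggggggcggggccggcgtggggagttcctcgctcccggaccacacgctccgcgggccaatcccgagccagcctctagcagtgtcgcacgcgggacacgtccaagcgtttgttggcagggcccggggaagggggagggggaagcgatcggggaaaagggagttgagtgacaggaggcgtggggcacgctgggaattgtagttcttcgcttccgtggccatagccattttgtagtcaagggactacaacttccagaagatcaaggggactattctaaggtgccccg
Ezh1 (chr11:101226414-101226713, minus strand): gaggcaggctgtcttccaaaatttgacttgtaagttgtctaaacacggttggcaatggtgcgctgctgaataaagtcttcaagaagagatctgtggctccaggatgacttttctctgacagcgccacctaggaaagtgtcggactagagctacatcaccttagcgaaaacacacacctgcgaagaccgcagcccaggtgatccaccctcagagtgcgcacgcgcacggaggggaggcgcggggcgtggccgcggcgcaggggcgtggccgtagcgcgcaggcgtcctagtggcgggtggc
The *Ezh2* window holds 1 match, starting at position 254 from its 5′ end, and the windows of *Jarid2* (both) and *Ezh1* hold no match to these letters. Over the 13 windows of the subunits 3 hold a match, those of *Ezh2*, *Suz12* and *Phf19*, while 1.56% of all 32851 promoter windows do. That share is over windows of any CpG content. The 3 windows with a match hold 31, 41 and 38 CpG, and 10 of the 13 lie above the median of all windows. No share over windows of like CpG was worked out, so that these counts are no result about the subunits. The CCAAT box (CCAAT, either strand) occurs 3 times in the *Ezh2* window, 1 time in each window of *Jarid2* and 0 times in that of *Ezh1*, and 37.4% of all windows hold it. These windows are rich in CpG, with 31 in *Ezh2*, 24 and 23 in *Jarid2* and 23 in *Ezh1* against a median of 7 over all windows. These matches are a description of the letters, and no binding was measured.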

How the data were processed

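Single-end reads of 50 bases from P14 retinas of 3 *Mll1KO* and 3 WT samples had been aligned by the authors with STAR 2.0.4b and counted with featureCounts 1.45 (build mm10 per the labels). The deposited values are RPKM, made by the authors, in 11404 lines for 11339 genes, and repeated lines were identical. The log2 fold changes, log2 mean CPM, p-values and FDR that the authors deposited from their edgeR comparison were not used.

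The total of each library and the length of each gene were worked out from RPKM, by searching for lengths that give whole reads within 0.05 reads, so that all genes having such a length is no test of the method. An annotated length gave whole reads for 6054 of the 11329 genes that have one, the other lengths were searched for, and 260 genes had more than 1 possible length. Genotypes were compared with limma 3.58.1 in R 4.3.3 (log2(RPKM + 1), variance trend, Benjamini-Hochberg adjustment over 11339 genes, threshold 0.05), without other terms, and the *Ezh1* to *Ezh2* ratio with an exact permutation test. The procedure was also run on simulated reads, the results of which are not given here and are not drawn on above. Named were *Kmt2a*, the subunits, called genes of the Polycomb lists, the 5 genes correlating best with *Ezh1* and with *Ezh2*, and the most abundant markers of cell types, of which some are not reported here. Markers with the largest or smallest change in their list were named as well, of which some are not reported here. Among them *Thy1* lost its call in 7 of 16 alternatives, and *Mcm4*, *C1qc* and *Tek* were not called with the libraries as deposited. Members and lists were chosen with earlier results of these data known. Coordinates, overlaps and shared stretches of 50 bases came from GENCODE vM21. Alternatives were TMM, RLE and upper-quartile factors, scaling to rod genes, pseudocounts of 0.1 and 5, a filter at RPKM 1, limma-voom alone and with TMM factors, the replicate letter as a block, and each sample left out. Libraries of 1 genotype differed by more than sampling noise, with a chi-square per degree of freedom of 3.8 to 10.5 between them. Scripts ran in Python 3.11.15 with pandas 2.3.3, numpy 2.4.6 and scipy 1.17.1, and plots used matplotlib 3.10.9.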

Additional observations from a re-analysis of the deposited data

How the results depend on the processing

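The count of changed genes was 9517 with libraries scaled to rod genes and ranged from 1704 to 2536 with each sample left out. The count of changed PRC2 subunits, of 8 listed, was 6 with libraries scaled to rod genes, where 83.9% of all genes were changed. It was 3 in each other setting with all samples, where 19.8% to 25.6% of all genes were. With each sample left out it was 2 to 3, where 15.0% to 22.4% of all genes were. The count of other Polycomb genes changed, of 33 listed, was 7 with the libraries as deposited, 1 of them higher, where 23.3% of all genes were changed. With libraries scaled to rod genes it was 28, where 83.9% of all genes were. It was 10 with TMM or RLE factors, 4 of them higher, and 8 with upper-quartile factors, 2 of them higher. With these factors 21.2% to 21.3% of all genes were changed. Limma-voom gave 12, where 25.6% of all genes were changed. Limma-voom with TMM factors, a setting chosen after seeing the data, gave 11, where 23.9% were. With each sample left out the count was 7 to 9, where 15.0% to 22.4% of all genes were changed. The *Ezh1* to *Ezh2* difference ranged from 0.30 with a pseudocount of 5 to 0.68 and kept its direction throughout.

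Scaling to rod genes, which lowers the median of all genes to -0.29, turned the direction of *Ezh1* (-0.12), *Suz12* (-0.11), *Aebp2* (-0.25), *Rbbp7* (-0.26), *Rbbp4* (-0.23), *Kdm6a* (-0.26), *Sik3* (-0.0767), *Usp29* (-0.0374), *Mtf1* (-0.19), *Arhgef15* (-0.13), *Ephb1* (-0.0427), *Mcm4* (-0.0846), *C1qc* (-0.0851) and *Tek* (-0.0536), and all of them lay above that median. The 3 PRC1 genes called as higher in some setting, *Ring1* (-0.0946), *Cbx6* (-0.19) and *Cbx7* (-0.14), turned and lay above it as well. The directions of the other PRC1 genes under this scaling are not given here. Of the subunits that kept their direction, it moved *Ezh2* from -0.33 to -0.56, *Jarid2* from -0.24 to -0.52, *Mtf2* from -0.16 to -0.41 and *Eed* from -0.06 to -0.33, the last 2 then being called. Leaving out 1 sample moved *Aebp2* between -0.0122 and 0.0355, *Rbbp7* between -0.0173 and 0.0663, *Kdm6a* between -0.12 and 0.21 and *Xist* between -2.38 and 0.80. Total RNA per retina was not measured, and the cause of these turns was not tested. Over 60 single genes, without those 3 of PRC1, and all alternatives, 860 values kept direction and side of the threshold, 60 lost the call and 20 gained it in the same direction, and 20 turned direction, of which 4 also lost the call and 5 gained it.

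Samples with the same replicate letter did not deviate together (correlation of their deviations from the group means -0.0395, -0.190 and -0.00714 for a, b and c), and no sample correlated best with the sample of its own letter, so that the letters were not read as pairs. With the replicate block 2242 genes, 3 PRC2 subunits and 7 other Polycomb genes were called, *Suz12* (limma adjusted p = 0.0376) taking the place of *Ezh1* (0.0666), and the *Ezh1* to *Ezh2* difference stayed at 0.59 (exact sign-flip permutation test, p = 0.25, the smallest that 3 pairs allow). Depth limits *Ezh2* most among the subunits, at 359 reads in its lowest library.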
